A study of Homo sapiens with 18 samples.

Results

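The 10 genes described here make asparagine, aspartate and the pyrimidine ring: asparagine synthetase (ASNS), the enzymes and carriers of the malate-aspartate shuttle (GOT1, GOT2, MDH1, MDH2, SLC25A12 and SLC25A13) and the 3 enzymes that build uridine monophosphate (CAD, DHODH and UMPS). They are a named group with no value in the rule that chose them, though earlier results of these data were known, and all 10 were found among the 45372 gene symbols measured. RNA was sequenced from 2 human acute myeloid leukemia (AML) cell lines, MV4-11 and THP1, both of which carry a rearranged KMT2A gene, and MV4-11 also a FLT3 internal tandem duplication. Cells received the solvent DMSO or 50 nM IACS-010759 (IACS), an inhibitor of mitochondrial complex I, for 8 h or 24 h, with 3 libraries in each of 6 groups. Which time a DMSO library stands for is not given, and the same 3 DMSO libraries of a line are the control for both times. Each line is a single long-cultured line, so the replicates describe that line and not AML in general.

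Complex I reoxidizes mitochondrial NADH, and proliferating cells depend on the NAD+ this returns to make aspartate. GOT2 makes aspartate in the mitochondrion, the carriers SLC25A12 and SLC25A13 export it in exchange for glutamate, and GOT1 and MDH1 consume it in the cytosol while oxidizing cytosolic NADH. When the shuttle is reversed, GOT1 can make aspartate instead. Aspartate is then a substrate of ASNS, which turns it into asparagine, and of CAD, which carries out the opening reactions of pyrimidine synthesis. DHODH, in the inner mitochondrial membrane, passes its electrons to ubiquinone, the same acceptor that complex I uses, and UMPS completes uridine monophosphate. ASNS is also a well-known target of the transcription factor ATF4, which acts through a C/EBP-ATF response element.

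That element lies close to the start of ASNS, so its letters were sought in the genes described here. The motif searched was TGATGNAAN on either strand, in the 250 bases before each RefSeq transcription start (GRCh38.p14, 12 windows for the 10 genes). It was found in 2 of the 10 genes, ASNS and GOT1. The element of ASNS was known before the search, so its match was given in advance and only that of GOT1 was not. Another ASNS window held no motif. The same motif was in 3.13% of 35116 windows of that length and in 3.87% of the 27305 genes with a window. Of the 8819 genes with a window and a mean of at least 1 TPM in both lines, 1.96% held it. The 10 genes were not tested against these shares. The 2 windows are shown because these were also the genes whose IACS libraries all lay above DMSO in THP1 at 8 h. That held for 0.704% of all genes tested. For GOT1 the gap was narrow, with a lowest IACS library of 7.89 TPM against a highest DMSO library of 7.87 TPM. ASNS lay above DMSO in the other comparisons too, but GOT1 did not. At 24 h in THP1 all GOT1 libraries lay below DMSO, and in the other line they overlapped it at both times. Whether the motif goes with a response was not tested. The capitals mark the motif, which reads TGATGAAAC in ASNS at positions -68 to -60 from the start. In GOT1 it lies on the opposite strand at -199 to -191, so it is printed as GTTGCATCA and reads TGATGCAAC on the other strand. The windows are chr7:97872409-97872658 for ASNS and chr10:99430625-99430874 for GOT1, both given on the minus strand and each ending at the base before the start. GENCODE 44 places the ASNS gene at chr7:97851677-97872542 on the minus strand, so a transcript of that annotation reaches into the ASNS window and past its motif, and GOT1 at chr10:99396870-99430624, which ends where its window begins.
ASNS: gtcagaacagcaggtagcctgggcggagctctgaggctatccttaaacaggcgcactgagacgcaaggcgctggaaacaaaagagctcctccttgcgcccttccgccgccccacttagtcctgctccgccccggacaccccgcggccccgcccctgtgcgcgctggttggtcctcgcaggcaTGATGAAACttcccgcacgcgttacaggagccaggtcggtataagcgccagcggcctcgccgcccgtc
GOT1: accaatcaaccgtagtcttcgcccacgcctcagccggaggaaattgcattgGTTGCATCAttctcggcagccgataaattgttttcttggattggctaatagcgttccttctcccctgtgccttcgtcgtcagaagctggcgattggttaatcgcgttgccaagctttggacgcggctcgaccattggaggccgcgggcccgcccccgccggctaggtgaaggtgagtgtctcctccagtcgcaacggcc
A match is a description of the letters and not a test of binding.

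Expression is given as TPM, a share of all transcripts after reads are divided by gene length, so that genes can be compared. In DMSO the malate dehydrogenases and CAD stood highest and ASNS and GOT1 among the lowest. In MV4-11 the mitochondrial malate dehydrogenase MDH2 had 133.8 ± 7.88 TPM (SD, n = 3, as for the values that follow), the trifunctional enzyme CAD 63.6 ± 4.34 and the cytosolic malate dehydrogenase MDH1 55.4 ± 4.12. GOT2 stood at 32.8 ± 1.30 TPM, UMPS at 18.9 ± 1.02 and SLC25A13 at 18.1 ± 0.864. SLC25A12 had 8.97 ± 0.467 TPM, DHODH 8.78 ± 0.420, ASNS 5.15 ± 0.842 and GOT1 4.15 ± 0.270. The libraries of CAD and MDH1 overlapped, as did those of UMPS and SLC25A13, of SLC25A12 and DHODH, and of ASNS and GOT1. In THP1, MDH1 (121 ± 7.92 TPM) and MDH2 (119.8 ± 8.71) overlapped at the top, followed by CAD at 48.2 ± 7.14 and GOT2 at 26.0 ± 4.35. UMPS (17.7 ± 3.78 TPM) and SLC25A13 (15.6 ± 4.01) overlapped, and so did SLC25A12 (8.97 ± 2.22), GOT1 (7.63 ± 0.297) and DHODH (6.99 ± 1.80). ASNS was lowest, at 1.71 ± 0.579 TPM.

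The files hold no reads, but steps of whole reads in the low values placed the libraries at an estimated 21695387 to 28546145 reads. By the same steps, ASNS rested on 50 reads in its lowest library and MDH1 on 8263 in its highest. Together 5 noncoding RNAs (RPPH1, RMRP, RN7SK, RN7SL1 and RN7SL2) held 39.6% to 60.1% of all TPM. The MV4-11 IACS libraries numbered 3 stood apart with 39.6% at 8 h and 42.9% at 24 h, against 47.3% to 51.9% in the other 7 of the line, so values that move without them are also given without them, an alternative chosen after seeing the data. In THP1 the share ran from 46.3% to 55.8% in DMSO and from 51.4% to 60.1% at 24 h of IACS. Because TPM sum to the same total, other genes read lower where these RNAs take more; their part in the results was not tested, and values after scaling by the median of ratios over genes are given beside those that it moves. Of 11 myeloid leukemia markers, 9 were at or above 1 TPM in every MV4-11 library and 8 in every THP1 library, while MEIS1 was under 1 TPM in THP1 and CD14 in both lines. All 13 markers of T cells, erythroid, epithelial and fibroblast cells stayed under 1 TPM, and the highest of the B cell markers was 1.71 TPM.

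**Figure D1:**
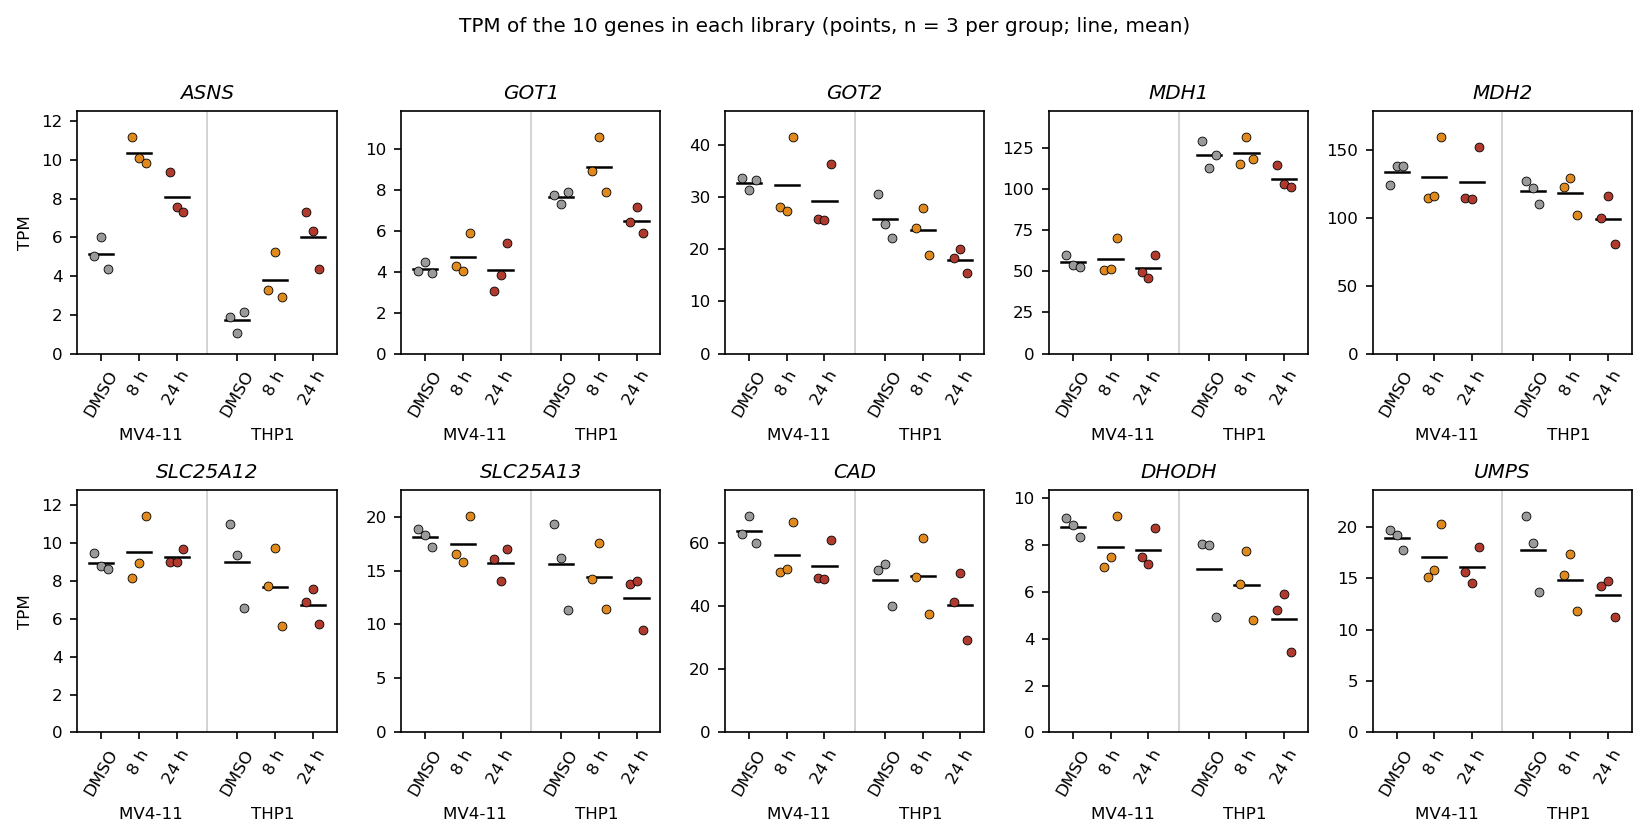
TPM (vertical axes, linear and starting at 0) of each of the 10 genes in the 18 libraries, with DMSO in grey, 8 h of IACS in orange and 24 h in red, and a line at the mean of 3. ASNS lies above DMSO in every IACS library of both lines, while the other panels show groups that mostly overlap.

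To find which of these genes responded to IACS, each time was compared with DMSO within a line by limma on log2(TPM + 1). A gene was called where its p, adjusted by Benjamini and Hochberg's method over all genes tested, was under 0.05 and its change exceeded 1.5-fold. ASNS was the gene that stood out. Its mean TPM was 2.01 times that of DMSO at 8 h and 1.57 times at 24 h in MV4-11, and 2.24 and 3.52 times in THP1. Its IACS libraries lay above all DMSO libraries in 4 of 4 comparisons, yet it did not pass the adjusted threshold in any of them, and neither did the other 9 genes. So 0 of 10 were called in each comparison, where limma called 0.0148% of all genes at 8 h and 0.0886% at 24 h in MV4-11, and 0.0144% and 0.0431% in THP1. At an unadjusted p under 0.05 with the same fold, the count was 1 at 8 h and 0 at 24 h in MV4-11, and 1 and 1 in THP1, ASNS each time. Over all genes, that rule counted 0.672% and 1.99% in MV4-11 and 0.761% and 2.2% in THP1. The exact Kruskal-Wallis test over the 3 groups of a line with the same fold gave the same counts among the 10, and 0.207%, 0.812%, 0.115% and 0.445% of all genes in that order.

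In MV4-11, ASNS read 5.06, 6.03 and 4.35 TPM in the 3 DMSO libraries, 11.2, 10.1 and 9.83 TPM at 8 h, and 9.37, 7.57 and 7.29 TPM at 24 h. Every library at 8 h lay above every library at 24 h, and both sets lay above DMSO. Wholly lower at 24 h than at 8 h were 2.05% of all genes. After median-of-ratios scaling the 2 times overlapped, with ASNS at 7.96 to 11.7 at 8 h and 6.76 to 8.78 at 24 h, both still above DMSO. On the log2(TPM + 1) scale, where a change of a low gene is understated, ASNS differed from DMSO by 0.89 (SE 0.14, limma adjusted p = 0.069) at 8 h, which ranked 30 of 13542 genes from the top. At 24 h the difference was 0.56 (SE 0.14, adjusted p = 0.138), ranked 311, and under the fold threshold. After median-of-ratios scaling limma did not call ASNS at 8 h (0.87, adjusted p = 0.109) or at 24 h (0.52, adjusted p = 0.0847). Without both libraries numbered 3, a choice made after seeing the data, limma called ASNS at both times. The values there were 0.93 (adjusted p = 0.0278) at 8 h and 0.63 (adjusted p = 0.0197) at 24 h. More genes were called in that setting, 0.237% at 8 h and 3.25% at 24 h. Libraries not overlapping with DMSO were common at this group size: 7.13% of all genes lay wholly above DMSO at 8 h and 19.4% at 24 h.

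In THP1, ASNS began lower and read 1.90, 1.06 and 2.16 TPM in DMSO, 3.29, 5.23 and 2.94 TPM at 8 h, and 7.33, 6.31 and 4.38 TPM at 24 h. The libraries at 8 h and 24 h overlapped, since the highest at 8 h exceeded the lowest at 24 h. After median-of-ratios scaling they did not overlap, with 3.59 to 4.75 at 8 h and 5.61 to 7.80 at 24 h. The share of all genes apart in this way after scaling was not counted. The difference from DMSO was 0.83 (SE 0.24, limma adjusted p = 0.941) at 8 h, ranked 14 of 13928 genes from the top, and 1.37 (SE 0.24, adjusted p = 0.0658) at 24 h, ranked 6. Wholly above DMSO lay 0.704% of all genes at 8 h and 3.32% at 24 h. The DMSO and 24 h libraries of THP1 varied together by number (replicate 1 with replicate 1, and so on), with r of 0.146, 0.157 and 0.324 over genes. A limma fit that blocks on this number called ASNS at 24 h (adjusted p = 0.00434), along with 2.13% of all genes. It was also called at 24 h after median-of-ratios scaling of the TPM (1.48, adjusted p = 0.0161), where 0.705% of genes were called. At 8 h the block gave an adjusted p of 0.196.

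The order of the times differed between the lines in the values, but not in a test that passed. Between 8 h and 24 h the log2 difference of ASNS was -0.33 (SE 0.14, limma adjusted p = 1.00) for MV4-11 cells. For THP1 cells it was 0.55 (SE 0.24, limma adjusted p = 0.968). The response in THP1 minus that in MV4-11 was -0.07 (SE 0.28, adjusted p = 0.963) at 8 h and 0.81 (SE 0.28, adjusted p = 0.633) at 24 h, the latter with an unadjusted limma p of 0.0105. None of the 10 genes was called in these comparisons. The share of all genes called was 0% from 8 h to 24 h in MV4-11 (without adjustment, 31 were higher and 32 lower), 0.00718% in THP1, and 0.00708% for the difference between the lines at 8 h and again 0.00708% at 24 h. At an unadjusted p under 0.05 with the same fold, only ASNS at 24 h, for the difference between the lines, was counted among the 10, as were 4.04% of all genes in that comparison.

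**Figure D2:**
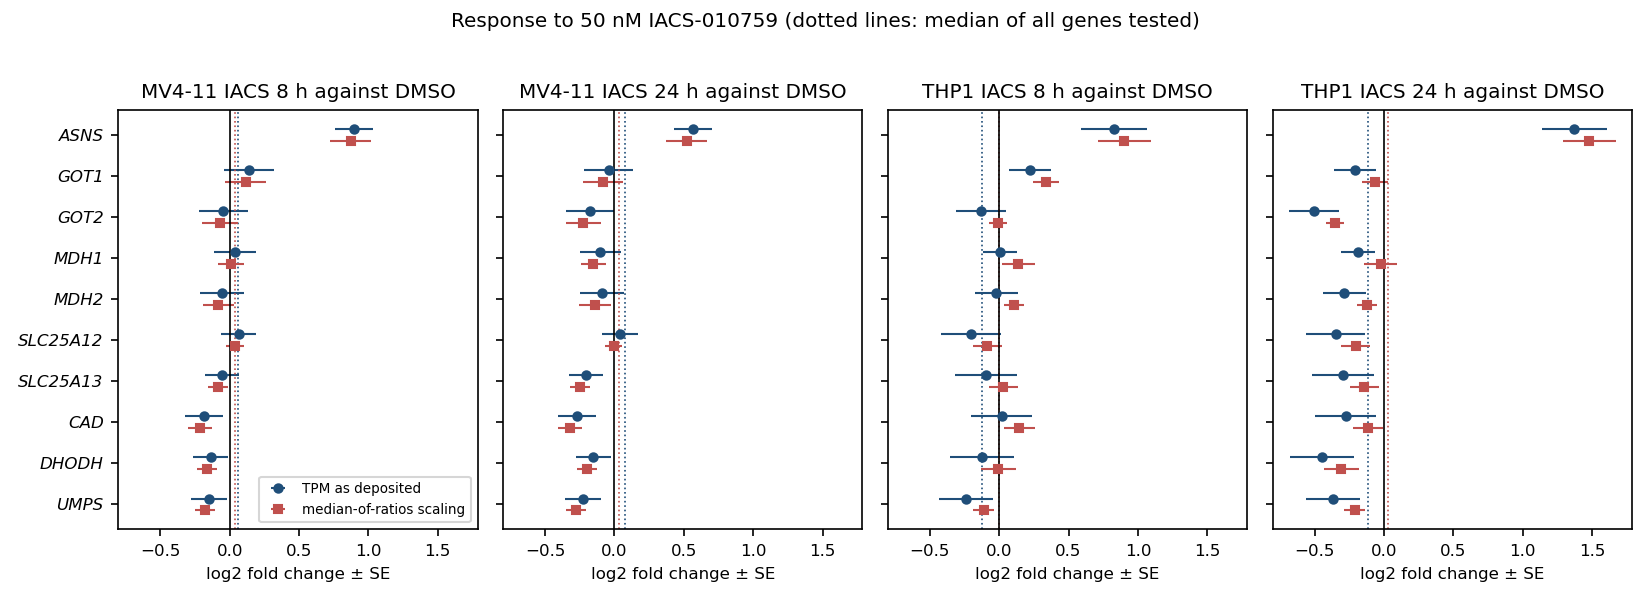
Log2 fold change (horizontal axis, with SE) of each gene against DMSO in the 4 comparisons, from TPM as deposited (blue) and after median-of-ratios scaling (red), with dotted lines at the median of all genes tested. ASNS reaches 0.89, 0.56, 0.83 and 1.37 as deposited, and the other 9 genes lie between -0.51 and 0.22.

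The malate-aspartate shuttle showed small values with wide overlap. Its 6 genes lay between -0.06 and 0.14 at 8 h and between -0.20 and 0.04 at 24 h in MV4-11, and between -0.20 and 0.22 at 8 h and between -0.51 and -0.18 at 24 h in THP1. Over all genes tested, the median log2 fold change was 0.06 and 0.08 in MV4-11 and -0.12 at both times in THP1. The 10 genes had medians of -0.05, -0.13, -0.06 and -0.29 in the same order. After median-of-ratios scaling the 6 shuttle genes lay between -0.09 and 0.34 at 8 h and between -0.35 and -0.02 at 24 h in THP1. In MV4-11 at 24 h, SLC25A13, a carrier that exports aspartate from mitochondria, was the 1 gene of the 10 wholly below DMSO as deposited. It read 16.1, 13.98 and 17.0 TPM against 18.9, 18.3 and 17.2 TPM. In the same deposited values, 5.26% of all genes lay wholly below DMSO in that comparison, and 1.65% at 8 h, where none of the 10 did.

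GOT1, the cytosolic aspartate aminotransferase, lay on either side of DMSO in THP1. It read 7.73, 7.30 and 7.87 TPM in DMSO, 8.91, 10.6 and 7.89 TPM at 8 h, and 6.41, 7.16 and 5.89 TPM at 24 h. All 8 h libraries were above DMSO, by a narrow gap, as were 0.704% of all genes, and all 24 h libraries were below it, as were 10.2% of all genes. The log2 differences were 0.22 (SE 0.15, limma adjusted p = 0.941) and -0.21 (SE 0.15, adjusted p = 0.678), so GOT1 was not called. The exact Kruskal-Wallis p over the 3 groups was 0.00357 in THP1 and 0.439 in MV4-11. The former is the lowest that 3 groups of 3 allow, reached wherever the groups do not overlap. It was not adjusted for the genes and lines tested, and the share of all genes reaching it was not counted. After median-of-ratios scaling the values were 0.34 at 8 h and -0.07 at 24 h. The 24 h libraries (6.82 to 7.56) then overlapped DMSO (6.75 to 8.92), while those at 8 h (9.59 to 9.94) did not.

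GOT2, the mitochondrial aminotransferase that makes aspartate, was the lowest of the 10 genes in THP1 at 24 h. It read 30.7, 24.9 and 22.2 TPM in DMSO and 18.3, 20.01 and 15.4 TPM at 24 h, without overlap. The log2 difference was -0.51 (SE 0.18, limma adjusted p = 0.506), and -0.35 after median-of-ratios scaling (adjusted p = 0.0266) with a change under 1.5-fold. The block gave an adjusted p of 0.0134 for the same -0.51, also under a 1.5-fold change. For neither setting was the share of all genes at such an adjusted p, whatever the fold, counted. In TPM as deposited, GOT1 and GOT2 were the 2 of 10 genes wholly below DMSO at 24 h in THP1, where 10.2% of all genes were. At 8 h the figure was 4.06%, with none of the 10. In MV4-11 GOT2 read 33.8, 31.3 and 33.3 TPM in DMSO and 25.9, 25.7 and 36.4 TPM at 24 h, where the library numbered 3 was the highest of all 6.

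MDH1, which oxidizes cytosolic NADH in the forward shuttle, differed by 0.04 at 8 h and -0.10 at 24 h in MV4-11 and by 0.01 and -0.18 for THP1 (SE 0.12 to 0.15). MDH2, its mitochondrial partner, differed by -0.05 and -0.09 for MV4-11 cells and by -0.02 and -0.29 for THP1 cells (SE 0.16 in each line). In MV4-11 the IACS libraries numbered 3 were the highest of their groups for both genes, for MDH2 with 160 TPM against 115 and 117 TPM at 8 h. Without both of these libraries, MDH1 differed by -0.11 and -0.21 (limma adjusted p = 0.493 and 0.0860) and MDH2 by -0.21 and -0.23 (limma adjusted p = 0.145 and 0.0459) at 8 h and 24 h, all under a 1.5-fold change. The share of all genes at such an adjusted p, whatever the fold, was not counted. SLC25A12, the other aspartate carrier, gave 0.06 and 0.04 in MV4-11 and -0.20 and -0.35 in THP1 (SE 0.13 and 0.22). None of these had groups apart from DMSO. After median-of-ratios scaling the THP1 values at 8 h and 24 h were 0.14 and -0.02 for MDH1, 0.11 and -0.12 for MDH2, -0.09 and -0.20 for SLC25A12 and 0.03 and -0.14 for SLC25A13.

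Each step of the shuttle that has a cytosolic and a mitochondrial form, or 2 carriers, was also compared as a ratio within a library, which no scaling of the library can alter. The question was whether IACS shifted the balance of a pair. The ratio of GOT1 to GOT2 was 0.127 ± 0.0133 (SD, n = 3) in DMSO, 0.147 ± 0.00488 at 8 h and 0.138 ± 0.0174 at 24 h in MV4-11. In THP1 it was 0.300 ± 0.0518, 0.388 ± 0.0249 and 0.363 ± 0.0173. At 8 h the log2 ratio was higher by 0.30 on average over the lines (0.22 in MV4-11 and 0.39 in THP1), with an exact two-sided permutation p within lines of 0.01 and an adjusted p of 0.06 over the 6 tests of ratios. At 24 h it was higher by 0.21 (exact permutation p = 0.06, adjusted 0.18). The smallest p the 400 arrangements allow is 0.005, and the difference at 8 h did not pass after adjustment. Without MV4-11 DMSO replicate 2 alone it did, at 0.34 (exact permutation, adjusted p = 0.03). Without the MV4-11 IACS library numbered 3, it was 0.31 at 8 h (adjusted 0.06) and 0.18 at 24 h (adjusted 0.39), by the same exact test. These 2 were adjusted over only the 3 ratios of their own time, and with fewer arrangements. The 0.06 is therefore not on the scale of the 0.06 over 6 tests with all libraries.

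MDH1 and MDH2 had a ratio of 0.416 ± 0.0571 in MV4-11 DMSO, 0.441 ± 0.00123 at 8 h and 0.410 ± 0.0211 at 24 h. In THP1 the ratio was 1.01 ± 0.0858, 1.03 ± 0.110 and 1.09 ± 0.186. The log2 changes averaged 0.06 and 0.04 (exact permutation, adjusted p = 0.690 and 0.768). The ratio of SLC25A12 to SLC25A13 lay between 0.495 and 0.592 in the group means, and its log2 changes of 0.0019 and 0.09 had adjusted p of 0.985 and 0.520 by the same exact test.

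**Figure D3:**
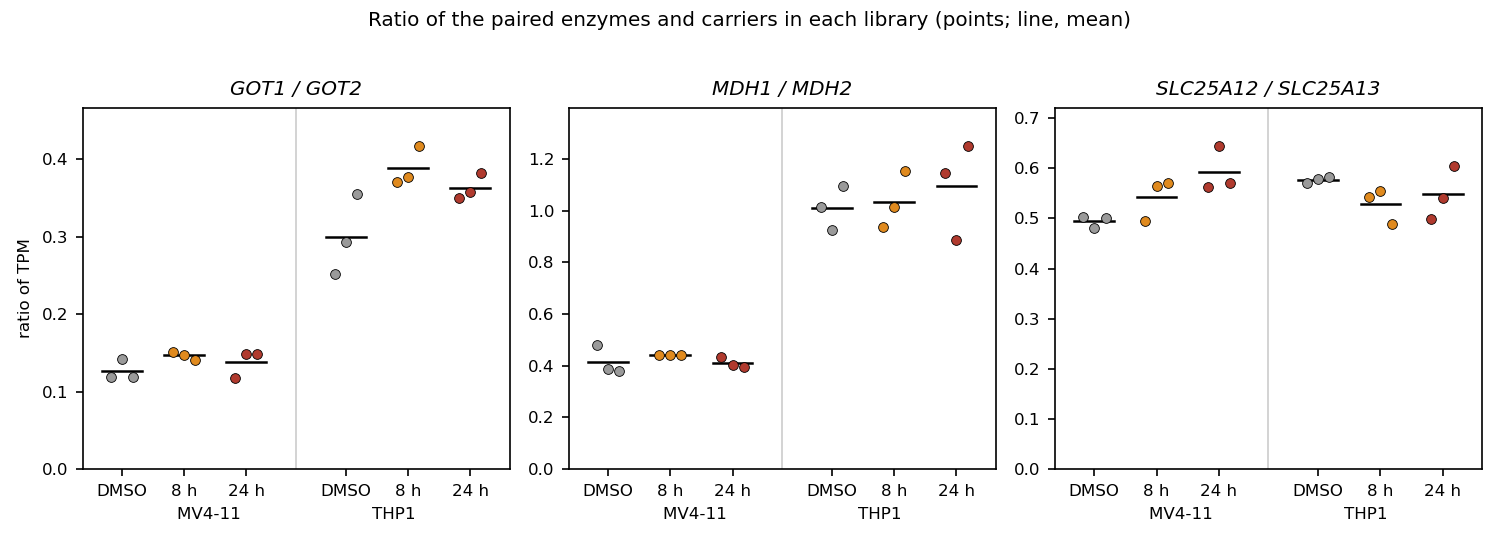
Ratio of TPM (vertical axes from 0) of GOT1 to GOT2, MDH1 to MDH2 and SLC25A12 to SLC25A13 in each library, with a line at the mean of 3. The GOT ratio is 0.127 in MV4-11 DMSO and 0.300 in THP1 DMSO, and the MDH ratio is 0.416 and 1.01, and for both pairs the means of the lines in DMSO lie further apart than any means within a line.

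None of the 3 pyrimidine enzymes was called, or lay apart from DMSO in TPM as deposited, in any comparison. CAD gave -0.18 and -0.27 (SE 0.14) in MV4-11 and 0.02 and -0.28 (SE 0.22) in THP1. DHODH gave -0.14 and -0.15 (SE 0.13) in MV4-11 and -0.12 and -0.45 (SE 0.23) in THP1. UMPS gave -0.15 and -0.23 (SE 0.13) in MV4-11 and -0.24 and -0.36 (SE 0.19) in THP1. The largest of these, DHODH at 24 h in THP1, rested on 8.05, 8.01 and 4.91 TPM in DMSO against 5.24, 5.91 and 3.43 TPM, so that 1 DMSO library was below 2 of the IACS libraries (limma adjusted p = 0.603). Between libraries of the same number, DHODH was lower at 24 h in 3 of 3 pairs. The same held for every other gene described here except ASNS, and the share of all genes was not counted. The block on this number gave limma adjusted p of 0.0195 for DHODH, 0.0321 for UMPS and 0.0705 for CAD, with the same values, under a 1.5-fold change. In that fit 2.13% of all genes passed both thresholds. The share that passed on the adjusted p alone, as DHODH and UMPS did, was not counted, so how common this was is not known. The THP1 values lay lower as deposited than after median-of-ratios scaling, which gave 0.15 and -0.12 for CAD, -0.0070 and -0.31 for DHODH and -0.11 and -0.21 for UMPS at 8 h and 24 h. In MV4-11 that scaling gave -0.21 and -0.32 for CAD (limma adjusted p = 0.397 and 0.0729) and -0.16 and -0.20 for DHODH (0.435 and 0.155). UMPS there gave -0.18 and -0.27 (0.408 and 0.0713). All 3 then lay wholly below DMSO at both times in MV4-11, as did UMPS in THP1 at 24 h. This was not particular to the pyrimidine enzymes. After the same scaling SLC25A13 lay wholly below DMSO at both times in MV4-11, and GOT2 in THP1 at 24 h. The share of all genes that did so after scaling was not counted.

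In TPM as deposited, CAD in MV4-11 depended on the libraries numbered 3. It read 62.6, 68.4 and 59.9 TPM in DMSO, 50.7, 51.5 and 66.6 TPM at 8 h and 48.8, 48.6 and 60.9 TPM at 24 h. Libraries 1 and 2 were below all of DMSO at both times, and library 3 was within its range. Without both libraries numbered 3 the log2 differences were -0.31 (adjusted p = 0.0732) and -0.38 (limma adjusted p = 0.0119), still under a 1.5-fold change. UMPS then gave -0.27 (adjusted p = 0.114) and -0.31 (limma adjusted p = 0.0294), DHODH -0.24 (adjusted p = 0.171) and -0.23 (limma adjusted p = 0.0839), and GOT2 -0.23 (adjusted p = 0.110) and -0.33 (limma adjusted p = 0.0132). Low adjusted p were widespread in that setting, where 438 of 13495 genes passed both thresholds at 24 h against 12 of 13542 with all libraries. The genes named here with an adjusted p under 0.05 passed on the p alone. The larger share of all genes that did so was not counted.

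Across the 18 libraries, centred within each line, the 9 genes other than ASNS varied together. Pearson's r between them ranged from 0.47 to 0.95 over 36 pairs, with a median of 0.82. ASNS had r from -0.41 to -0.03 with the 9. These values describe TPM as deposited, in which the points share treatment, line and the scaling of the library. How high r runs between other pairs of genes was not measured, so these values are not shown to be particular to the 9. After median-of-ratios scaling, chosen here after seeing the data, r between the 9 ran from -0.29 to 0.83 with a median of 0.57, and that of ASNS with the 9 from -0.69 to 0.06. Without both MV4-11 libraries numbered 3, the median between the 9 was 0.82 and ASNS ran from -0.54 to -0.13. Of 12555 genes, those most like ASNS by r over the 18 libraries, again from TPM as deposited, were TRIB3 (r = 0.94), RPS6KA2 (0.91), TTC39B (0.89), APOL6 (0.89) and SESN2 (0.89). The gene most like GOT1 was RIMKLA (r = 0.92). Most like GOT2 was DRG1 (r = 0.98), most like CAD was IPO4 (0.97), most like DHODH was RRP1B (0.99) and most like UMPS was TOMM5 (0.98). For MDH1 it was SELENOT (r = 0.95), for MDH2 DPH2 (0.98), for SLC25A12 AP4B1 (0.97) and for SLC25A13 FARSB (0.98).

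**Figure D4:**
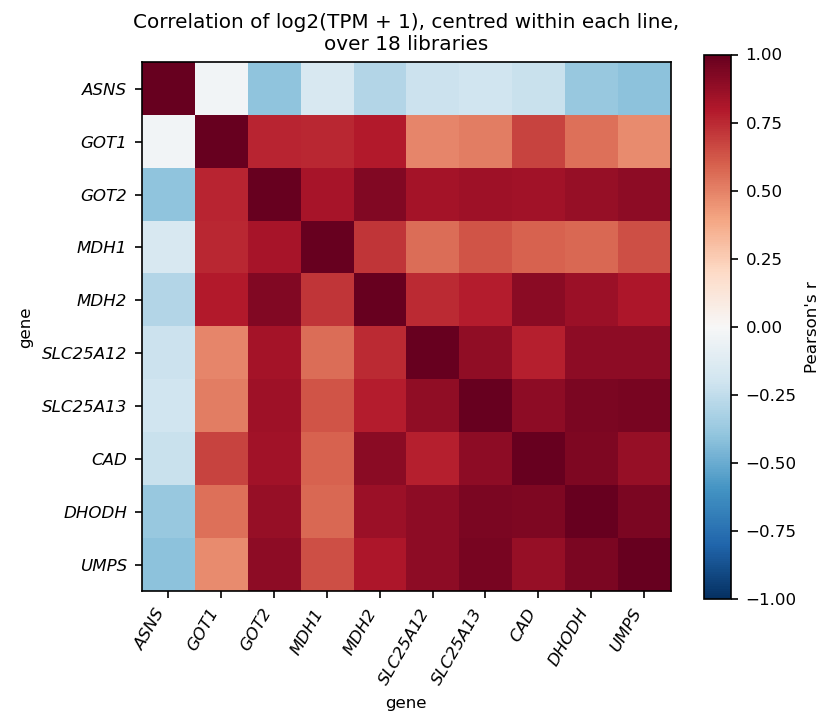
Pearson's r (colour, from -1 in blue to 1 in red) between the 10 genes over 18 libraries, from log2(TPM + 1) centred within each line. The row of ASNS runs from -0.41 to -0.03, while the other 9 genes are at 0.47 to 0.95 with each other (-0.29 to 0.83 after median-of-ratios scaling).

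The neighbouring steps were read from 3 lists of 89 genes in all. Of the list on the supply and use of aspartate (29 genes), 22 were tested in MV4-11 and 23 in THP1, and 0 were called by limma in any of the 4 comparisons with DMSO. At an unadjusted p under 0.05 and the same fold, 1 was counted, ASS1 at 24 h in THP1, where 0.467% of all genes were counted as higher. ASS1, which joins aspartate to citrulline, had the highest mean change of this list, with 0.17, 0.20, 0.11 and 0.64 (adjusted p = 0.239 at 24 h in THP1). There its mean was 66.9 ± 9.26 TPM against 42.4 ± 2.08 TPM in DMSO. ASL, the enzyme after it, gave 0.20, 0.22, 0.09 and -0.01. The lowest were UCP2, a mitochondrial carrier (-0.35, -0.18, -0.22 and -0.26), and NAT8L, which acetylates aspartate (-0.24, -0.28, -0.05 and -0.25).

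Of the later pyrimidine steps and salvage (37 genes), 35 were tested in MV4-11 and 36 in THP1, again with 0 called. At an unadjusted p under 0.05 with the same fold, 3 were lower at 24 h in THP1, as were 1.74% of all genes, and 0 in the other comparisons. The median of the list in THP1 at 24 h was -0.28, against -0.12 over all genes tested. TYMS, thymidylate synthase, gave -0.34, -0.37, -0.26 and -0.36, and NME1, a nucleoside diphosphate kinase, -0.14, -0.45, -0.03 and -0.61. The highest were the mitochondrial thymidine kinase TK2 (0.16, 0.30, 0.07 and 0.19) and NME3 (0.20, 0.19, 0.01 and -0.04).

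Of the list on cytosolic NADH reoxidation and electron entry to ubiquinone (23 genes), 19 and 20 were tested and 0 were called, with 1 lower at an unadjusted p under 0.05 and the same fold, at 24 h in THP1. That gene was LDHA, the lactate dehydrogenase subunit that regenerates NAD+ in the cytosol, with -0.29, -0.52, -0.23 and -0.66 (adjusted p = 0.400 for the last). Its mean was 222 ± 30.7 TPM in THP1 DMSO and 141 ± 23.9 TPM at 24 h. LDHB gave -0.09, -0.13, -0.16 and -0.29. At the upper end were COQ10A, a coenzyme Q-binding protein (0.20, 0.35, -0.11 and 0.14), and ME3, the mitochondrial NADP-dependent malic enzyme (0.25, 0.39, -0.34 and -0.15).

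The lines themselves differed in 3 of the 10 genes, compared in DMSO by limma over 18 libraries. MDH1 and GOT1, the cytosolic enzymes of the shuttle, were higher in THP1, and ASNS was lower. MDH1 read 60.1, 53.7 and 52.4 TPM in MV4-11 and 129, 113 and 121 TPM in THP1, which is 2.18 times the mean, with a log2 difference of 1.11 (SE 0.14, adjusted p = 1.42e-06). GOT1 read 4.03, 4.45 and 3.95 TPM in MV4-11 and 1.84 times that mean in THP1, with a log2 difference of 0.75 (SE 0.16, adjusted p = 0.000776). ASNS was 3.01 times higher in MV4-11, with a log2 difference of -1.20 (SE 0.20, adjusted p = 5.91e-05). No library of one line overlapped with those of the other for these 3 genes, as for the 29.8% of all genes wholly higher and the 30.9% wholly lower in THP1. Differences between the lines were frequent, with 36.9% of all genes called, so 3 of 10 is near that share.

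The mitochondrial forms and the carriers were not called. GOT2 gave -0.34 (SE 0.18, limma adjusted p = 0.136), MDH2 -0.16 (SE 0.16), SLC25A13 -0.24 (SE 0.19) and SLC25A12 -0.02 (SE 0.18). CAD gave -0.40 (SE 0.20, adjusted p = 0.0973), DHODH -0.32 (SE 0.19) and UMPS -0.11 (SE 0.17). 

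**Figure D5:**
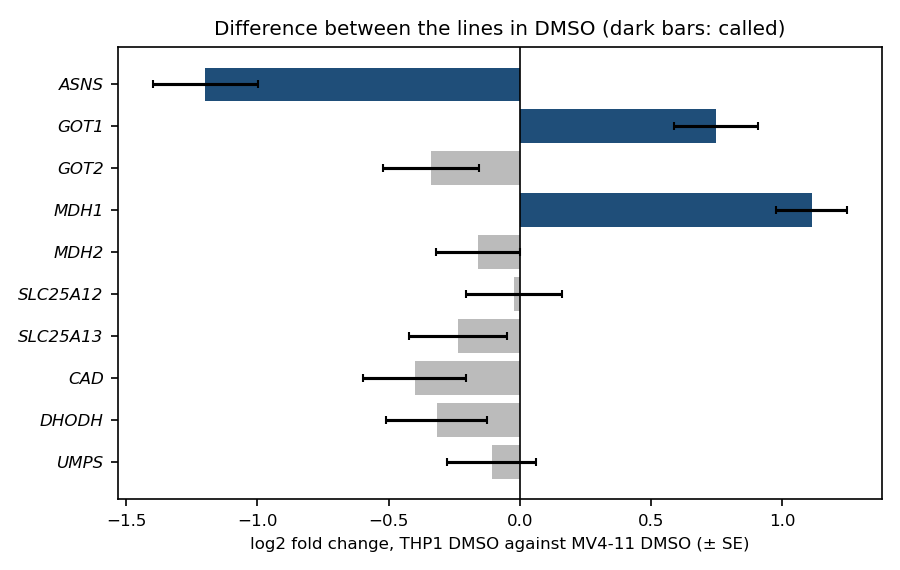
Log2 fold change of THP1 DMSO against MV4-11 DMSO (horizontal axis, bars from 0, with SE) for each gene, with called genes in dark blue. MDH1 (1.11) and GOT1 (0.75) are higher and ASNS (-1.20) is lower in THP1.

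Among the neighbouring steps, 3 genes of the aspartate list were higher and 8 lower in THP1 (of 22 tested), 11 and 4 of the later pyrimidine steps (of 35), and 2 and 2 of the NADH list (of 20). Over all 14117 genes tested, 2776 were called higher and 2435 lower in THP1, and the lists were not tested against these. The following were picked after their values were seen. SLC25A11, the carrier that exchanges malate in the shuttle, had 36.0 ± 5.45 TPM in THP1 against 71.7 ± 4.77 in MV4-11 (log2 difference -0.98). GPT2, a mitochondrial alanine aminotransferase, had 5.62 ± 1.03 against 19.5 ± 3.59 TPM (-1.63). GPD2, which passes electrons of the glycerol phosphate shuttle to ubiquinone, had 38.7 ± 6.94 against 16.0 ± 1.49 TPM (1.22), and the cytosolic malic enzyme ME1 21.5 ± 2.68 against 1.04 ± 0.556 TPM (3.50). CTPS1, which makes CTP, had 119 ± 31.6 TPM against 30.1 ± 3.02 TPM (1.92).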

How the data were processed

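RNA-seq was measured in 18 libraries, 3 per group, which the methods call independent replicates. The authors deposited TPM per gene symbol in 1 table, and 0 columns were left out. Per the methods, libraries were made with TruSeq RNA Sample Prep v2, sequenced as 100-bp paired-end reads, trimmed, and mapped to GRCh38 with CLC Genomics Workbench v20. Strand use in counting is not given in the sources used here. Because TPM keep no depth, it was estimated from steps of whole reads in low values with GENCODE 44 exon lengths (28219 symbols); 75.1% to 76.6% of low values came out within 0.02 of a whole number.

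From the TPM, log2(TPM + 1) was fitted with limma 3.58.1 (R 4.3.3; variance trend) for genes averaging 1 TPM or more, in 9 libraries per line, or 18 for differences between lines, with p-values adjusted over all genes tested. This replaces the Kruskal-Wallis test with Dunn's test that the methods name; the former was run as an exact alternative. Ratios were tested by exact permutation within lines. Same-numbered libraries deviated together (every r above 0.1) for THP1 DMSO and 24 h, THP1 8 h and 24 h, and MV4-11 8 h and 24 h. The r between libraries of different number was not computed, so the pairing rests on these values alone. No library was a copy of another. The scripts were tested on simulated data. Named list genes are the 2 highest and 2 lowest of each list by mean change over the 4 comparisons, and any gene called there. For likeness, the 5 genes closest to ASNS and the 1 closest to each other gene were named. The genes and lists were chosen with earlier results of these data known. Alternatives were other pseudocounts, filters, scalings, variance models and sets of libraries, the replicate block, and leaving out each library.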

Additional observations from a re-analysis of the deposited data

How the results depend on the processing

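Of the 10 genes, 0 were called against DMSO, and this count became 1, always ASNS, in the following cases. In MV4-11 at 8 h it was 1 with the replicate block, with an unadjusted p, with only the libraries compared, by the exact Kruskal-Wallis test and without both libraries numbered 3, a choice made after seeing the data, and at 24 h it was 1 in the last case alone. The block together with median-of-ratios scaling left it at 0 at 8 h (adjusted p = 0.0645 for ASNS). In THP1 it was 1 at 8 h with an unadjusted p and by the exact Kruskal-Wallis test, and at 24 h with both of these, with the replicate block, with median-of-ratios scaling, with both together and without the 5 noncoding RNAs. The difference between lines at 24 h gave 1 with an unadjusted p. Leaving out each library gave 0 to 1 in MV4-11 at 8 h (1 without the 24 h replicate 3) and 0 to 1 in THP1 at 24 h (1 without the 24 h replicate 3). With a mean of at least 10 TPM, the 3 calls between the lines became 1, because ASNS and GOT1 were no longer tested. The adjusted p of ASNS ran from 0.0133 to 0.483 and from 0.0197 to 0.505 in MV4-11, and from 0.183 to 1.00 and from 0.00434 to 0.387 in THP1, at 8 h and 24 h, over all these alternatives but the unadjusted p, and its value stayed positive in each.

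Values near 0 reversed. Without both MV4-11 libraries numbered 3, those at 8 h became -0.00034 for GOT1, -0.11 for MDH1 and -0.063 for SLC25A12. In MV4-11 at 24 h SLC25A12 became -0.0065 with median-of-ratios scaling, alone or with the replicate block, and -0.011 without the noncoding RNAs. In THP1 at 8 h these 3 settings gave 0.11, 0.11 and 0.092 for MDH2 and 0.029, 0.029 and 0.012 for SLC25A13. The ASNS difference between lines at 8 h became 0.12 with a pseudocount of 0.1, 0.052 with median-of-ratios scaling, alone or with the replicate block, and 0.13 without the noncoding RNAs. SLC25A12 between the lines became 0.040 without the noncoding RNAs. The cause was not tested.

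Leaving out 1 library at a time also turned small values. In MV4-11 at 8 h the ranges were -0.00034 to 0.22 for GOT1, -0.23 to 0.060 for GOT2, -0.11 to 0.12 for MDH1, -0.21 to 0.030 for MDH2, -0.063 to 0.16 for SLC25A12 and -0.16 to 0.0059 for SLC25A13, and at 24 h -0.22 to 0.11 for GOT1. In THP1 at 8 h they were -0.26 to 0.013 for GOT2, -0.049 to 0.055 for MDH1, -0.091 to 0.078 for MDH2, -0.29 to 0.065 for SLC25A13, -0.15 to 0.20 for CAD and -0.33 to 0.034 for DHODH. The ASNS difference between lines at 8 h ranged from -0.27 to 0.063, and SLC25A12 and UMPS between the lines from -0.17 to 0.16 and from -0.24 to 0.059. Log2 ratios ranged from 0.24 to 0.36 for GOT1 to GOT2 at 8 h, from -0.0074 to 0.12 for MDH1 to MDH2 at 24 h and from -0.016 to 0.035 for SLC25A12 to SLC25A13 at 8 h. The replicate block changed no call other than those of ASNS, and was not run for the lines in DMSO, whose numbers pair nothing. Depth limits ASNS and GOT1 most.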
